A study of Mus musculus with 12 samples.

Results

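Glycogen is the branched glucose store of animal cells, and the genes described here encode the proteins that build it and take it apart: Ppp1r3c, Gys1, Gbe1, Ugp2, Pygb, Pygl, Pygm and Gaa. These are 8 of the 12393 genes named on the array, and all probe sets that carry 1 of the 8 symbols alone were taken, 15 of the 22626 measured. The set was chosen by function and selected on measured values, since probe sets of Ppp1r3c and Gys1 had lower intensities without gastrin in an earlier analysis of the same arrays. The comparison in which they were lower is not named, and that of the saline-infused knockout with wild type is taken for it here. The levels of these 2 genes there, and in the comparisons that share its arrays, are a description.

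RNA was measured from scraped fundic mucosa, the stomach lining that secretes acid, on 12 single-dye arrays of the mouse, 3 in each of 4 groups. The first group was gastrin knockout mice given a 1-week infusion of gastrin, and the second was mice lacking both gastrin and cholecystokinin (CCK), for which no infusion is described. A further group was gastrin knockout mice given saline in a 1-week infusion, labelled as males 2 months old, and the last was wild-type mice, for which no infusion is described and about 2 to 4 animals were dissected. Gastrin is the stomach hormone that drives acid secretion and the growth of its mucosa, and CCK is a related gut hormone that shares a receptor with it. The first 3 groups all lack the gastrin gene. Age and sex are labelled for the saline-infused group alone. Whether each array came from its own animal is not stated, and the wild-type arrays may hold RNA pooled from those 2 to 4 animals. The p-values therefore measure the spread between these samples.

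In glycogen synthesis, UDP-glucose pyrophosphorylase (Ugp2) makes the activated glucose that glycogen synthase (Gys1, the form of muscle and most other tissues) adds to the chain, and the branching enzyme (Gbe1) makes the branch points. Glycogen phosphorylase, in its brain (Pygb), liver (Pygl) and muscle (Pygm) forms, takes glucose units off again in the cytosol, and acid alpha-glucosidase (Gaa) digests glycogen in lysosomes. Ppp1r3c, also called protein targeting to glycogen, holds protein phosphatase 1 on the glycogen particle, where the phosphatase switches synthase on and phosphorylase off.

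The array medians lay between 403 and 421 intensity units, and replicate arrays correlated at 0.955 to 0.973 (Pearson r of log2 values). The probe set of Gast, the gastrin gene, read -72 to -34 on the gastrin-infused knockout arrays, -162 to -35 on the double knockout arrays and -8 to 37 on the saline-infused knockout arrays, against 318 to 823 in wild type. The labels of the gastrin genotype therefore matched, while Gast cannot check which knockout arrays received gastrin and which saline. The probe set of Cck lay near the noise in every group and checks nothing about the double knockout. Of the 15 glycogen probe sets, 12 were above the noise level of the array (the size of its lowest 1% of values, 75.3 to 90.9 units as group means) on all 12 arrays. The second Gys1 probe set was above it on 9 arrays, Pygl on 11 and Gbe1 on 6.

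The promoters of Ppp1r3c and Gys1 are printed because these are the genes whose brighter probe sets spread widest over the groups. They are the 250 bases before the gene start in the RefSeq annotation of GRCm38.p6, read 5′ to 3′ on the gene's strand, at chr19:36736605-36736854 (minus strand) for Ppp1r3c and chr7:45434589-45434838 (plus strand) for Gys1. Capitals mark the core of the hypoxia response element (ACGTG or GCGTG on either strand) and the GC box (GGGCGG on either strand).
Ppp1r3c: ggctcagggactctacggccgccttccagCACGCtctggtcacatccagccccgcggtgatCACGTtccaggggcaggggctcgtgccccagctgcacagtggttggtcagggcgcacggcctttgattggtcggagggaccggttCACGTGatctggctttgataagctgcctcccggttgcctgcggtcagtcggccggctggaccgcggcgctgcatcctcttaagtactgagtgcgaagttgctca
Gys1: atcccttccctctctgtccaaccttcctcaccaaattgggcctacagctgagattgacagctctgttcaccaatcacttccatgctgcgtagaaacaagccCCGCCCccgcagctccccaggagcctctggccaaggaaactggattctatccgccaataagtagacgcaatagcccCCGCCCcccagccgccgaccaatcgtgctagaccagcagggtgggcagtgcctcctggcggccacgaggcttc
The Ppp1r3c stretch held 4 matches to the hypoxia response core, of which the last pair is the 2 strands of 1 CACGTG, and 0 GC boxes. The Gys1 stretch held 0 matches to that core and 2 GC boxes, and CCAAT, searched on both strands and left in lower case, occurred 1 time before Ppp1r3c and 4 times before Gys1. Among 32851 promoter stretches of the same length, 38.6% held the core, 6.02% CACGTG, 32.7% the GC box and 33.8% CCAAT. Of the 9 promoters of the 8 genes (Ugp2 has 2), 6 held the core. The cAMP response element, TGACGTCA, occurred in 0 of the 9 and in 1.55% of all stretches. These are matches of letters and say nothing about binding.

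Ppp1r3c was low in the saline-infused knockout on its brighter probe set, 1433691_at. Its intensities there were 681, 455 and 574 on the gastrin-infused knockout arrays, 301, 432 and 336 on the double knockout arrays, 193, 167 and 196 on the saline-infused knockout arrays, and 666, 537 and 727 on the wild-type arrays. The means were 570.0 ± 113, 356 ± 67.8, 185 ± 15.9 and 643 ± 97.0 (SD, n = 3 each), in the same order. The saline-infused arrays lay below every other array, the double knockout arrays lay between, and the gastrin-infused and wild-type arrays overlapped. As log2 differences ± SE, the saline-infused knockout stood at -1.79 ± 0.19 from wild type (0.290 times its level). The gastrin-infused knockout stood at 1.61 ± 0.19 from the saline-infused knockout (3.04 times) and at -0.18 ± 0.19 from wild type. The double knockout stood at 0.93 ± 0.19 from the saline-infused knockout (1.91 times) and at -0.86 ± 0.19 from wild type (0.552 times), so the group that lacks both hormones was not the lowest. These 5 differences are, or share arrays with, the comparison taken to have chosen the gene, and are a description.

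The comparison of the gastrin-infused knockout with the double knockout shares no array with the comparison of the saline-infused knockout with wild type, and was tested. Its groups differ in the CCK gene and the infusion as well, and the test is not independent of the choice of genes if that choice also drew on these groups. There Ppp1r3c was 0.68 ± 0.19 higher on the log2 scale in the gastrin-infused knockout, 1.60 times the double knockout, with all 3 gastrin-infused arrays above all 3 double knockout arrays, and it missed the threshold of 0.05 (limma, Benjamini-Hochberg adjusted p = 0.0701 over 22626 probe sets). The call depends on the setting: with quantile normalization the adjusted p was 0.0499, and with probe sets below the median left out it was 0.0222. That filter used the mean over all 12 arrays, and this probe set cleared it narrowly, at percentile 51.3. It did so through its high groups, as its double knockout mean of 356 lay below the array medians of 403 to 421. Nothing is therefore read from the pass under that filter.

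The second Ppp1r3c probe set, 1425631_at, showed much less. It read 236, 235 and 291 in the gastrin-infused knockout, 201, 235 and 157 in double knockout mice, 215, 193 and 222 in the saline-infused knockout and 282, 212 and 274 in wild type. The gastrin-infused arrays lay above the saline-infused ones, while saline-infused and wild-type arrays overlapped. Its log2 difference was -0.28 ± 0.17 between the saline-infused knockout and wild type, -0.38 ± 0.17 for the double knockout against wild type and 0.27 ± 0.17 for gastrin against saline infusion in the knockout. For the gastrin-infused knockout against the double knockout it was 0.37 ± 0.17 (limma adjusted p = 0.239). The 2 probe sets had the same sign in these 4 comparisons. For the double knockout against saline infusion they did not, with -0.10 ± 0.17 on this one and 0.93 ± 0.19 on the brighter.

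Gys1 was also lowest in the saline-infused knockout on its brighter probe set, 1416737_at. The intensities were 433, 445 and 353 in the gastrin-infused knockout, 558, 494 and 362 in double knockout mice, 240, 272 and 145 in the saline-infused knockout and 658, 525 and 685 in wild type. The means were 410.3 ± 50.0, 471 ± 99.9, 219 ± 66.1 and 623 ± 85.7 (SD, n = 3 each), in the same order. All 3 saline-infused arrays were below the other 9. The order from the top was wild type, double knockout, gastrin-infused knockout and saline-infused knockout, and the first and second, as well as the middle pair, overlapped.

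As a description, Gys1 stood at -1.55 ± 0.25 between the saline-infused knockout and wild type on the log2 scale (0.342 times) and at 0.95 ± 0.25 in the gastrin-infused against the saline-infused knockout (1.93 times). The double knockout stood at 1.13 ± 0.25 from the saline-infused knockout (2.19 times) and at -0.42 ± 0.25 from wild type. In the gastrin-infused knockout the gene stayed at -0.60 ± 0.25 from wild type, with no overlap between the arrays. In the tested comparison, the gastrin-infused against the double knockout, the difference was -0.18 ± 0.25 with overlapping arrays (limma adjusted p = 0.747). Both Ppp1r3c and Gys1 had their lowest mean in the saline-infused knockout, and whether the genes differ in the order of the other 3 groups was not tested.

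The second Gys1 probe set, 1450196_s_at, did not show the pattern. It read 109, 212 and 43 in the gastrin-infused knockout, 194, 129 and 227 in double knockout mice, 122, 227 and 126 in the saline-infused knockout and 49, 11 and 140 in wild type. Wild type was its dimmest group, with 1 of 3 arrays above the noise, so no fold is given. Against the double knockout the gastrin-infused knockout did not pass on it (limma adjusted p = 0.603).

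**Figure D1:**
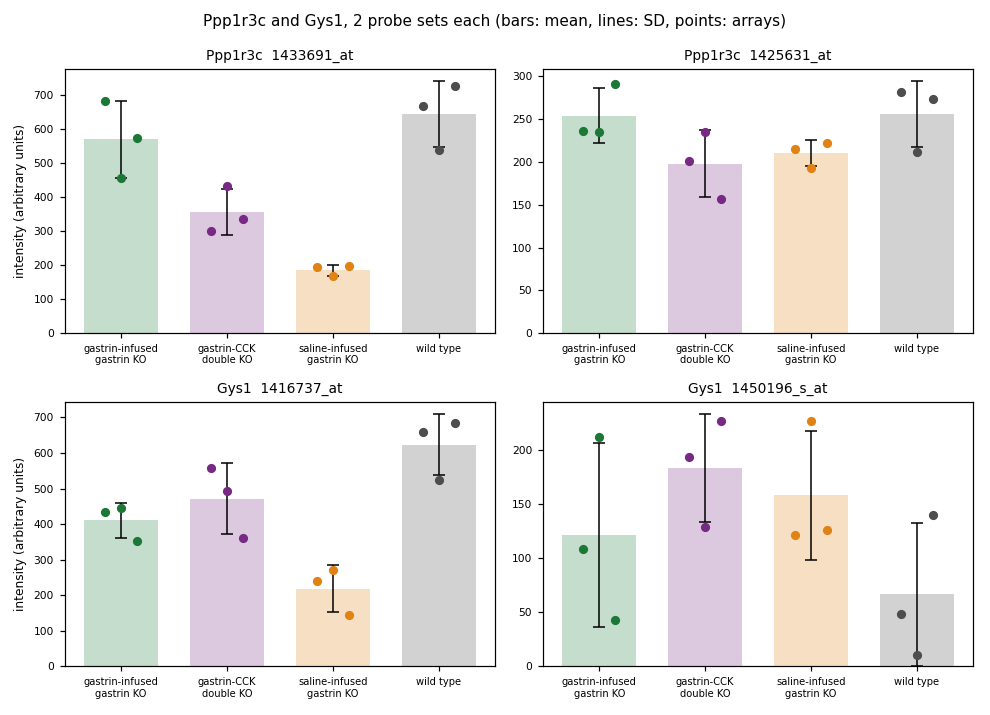
Intensity (arbitrary units, linear axis from 0) of the 2 probe sets of Ppp1r3c and of Gys1 in the 4 groups, with points for arrays, bars for means and lines for the SD (n = 3). On the left-hand probe sets the saline-infused knockout arrays (167 to 196 for Ppp1r3c, 145 to 272 for Gys1) lie below all others, and on the right-hand ones they do not.

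Ugp2, the supplier of UDP-glucose, ran the other way, with its highest mean in the saline-infused knockout on all 5 of its probe sets. The brightest, 1451742_a_at, read 7415, 6476 and 7355 in the gastrin-infused knockout, 6002, 7980 and 6158 in double knockout mice, 8681, 10676 and 8394 in the saline-infused knockout and 7653, 7503 and 7815 in wild type. All 3 saline-infused arrays were above the other 9. The same held for 1426461_at, with 1183, 1148 and 1183 in the gastrin-infused knockout, 1171, 1322 and 934 in double knockout mice, 1443, 1738 and 1455 in the saline-infused knockout and 1178, 1251 and 1049 in wild type. It held too for 1434485_a_at, with means of 4308 ± 693, 4197 ± 974, 5891 ± 501 and 4297.0 ± 290 in that order (SD, n = 3 each). On 1434486_x_at and 1426460_a_at the saline-infused arrays overlapped with those of other groups. The log2 difference of the saline-infused knockout from wild type was 0.26 to 0.45 over the 5 probe sets.

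None of the 5 Ugp2 probe sets passed the test in any of the 6 comparisons, that of the saline-infused knockout with wild type included. For the gastrin-infused against the saline-infused knockout the log2 differences ran from -0.63 to -0.35 and limma's adjusted p from 0.185 to 0.308. For the double knockout against the saline-infused knockout 1451742_a_at stood nearest to the threshold, at -0.47 ± 0.13 with an adjusted p of 0.0691. That comparison depended on the setting, with 3 of 5 probe sets past the threshold when dim probe sets were left out (adjusted p = 0.0321, 0.0408 and 0.0476). With quantile normalization 1426461_at passed (0.0257), with the trended, robust variance prior 1451742_a_at did (0.0295), and without double knockout replicate 2 both 1451742_a_at and 1434485_a_at did (0.0311 and 0.0382). Against wild type the gastrin-infused knockout differed by 0.02 at most upwards and 0.22 at most downwards, and the 5 probe sets count as 1 gene.

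Gbe1, the branching enzyme, was too dim to follow. Its probe set read 97, 99 and 62 in the gastrin-infused knockout, 114, 68 and 49 in double knockout mice, 72, 76 and 94 in the saline-infused knockout and 57, 133 and 112 in wild type. Of the saline-infused arrays 0 of 3 were above their noise level, and in each other group 2 of 3 were, so a difference was not detectable at this signal.

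Among the phosphorylases, Pygb, the brain form, was lowest in the gastrin-infused knockout. It read 2467, 2362 and 2404 there, 3389, 3506 and 2963 in the double knockout, 3288, 3676 and 2604 in the saline-infused knockout and 3354, 3387 and 3143 in wild type. The 3 gastrin-infused arrays were below the other 9, which overlapped with one another. The gastrin-infused knockout stood at -0.44 ± 0.12 from the double knockout (limma adjusted p = 0.0675), at -0.39 ± 0.12 from the saline-infused knockout (adjusted p = 0.154) and at -0.45 ± 0.12 from wild type (adjusted p = 0.245), none of them past the threshold. The first of these did pass with quantile normalization (adjusted p = 0.0205), with dim probe sets left out (0.0346) and with a trended, robust variance prior (0.0351).

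Pygl, the liver form, was also lowest there, with a signal nearer to the noise. It read 122, 67 and 121 in the gastrin-infused knockout, 124, 241 and 188 in double knockout mice, 183, 150 and 142 in the saline-infused knockout and 112, 213 and 184 in wild type. The gastrin-infused arrays lay below both other knockout groups and overlapped with wild type. The log2 difference of the gastrin-infused knockout was -0.84 ± 0.34 from the double knockout (limma adjusted p = 0.188) and -0.66 ± 0.34 from the saline-infused knockout (adjusted p = 0.385).

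Pygm, the muscle form, was highest in the saline-infused knockout, like Ugp2. It read 684, 677 and 726 in the gastrin-infused knockout, 653, 528 and 640 in double knockout mice, 866, 781 and 840 in the saline-infused knockout and 606, 698 and 460 in wild type. The 3 saline-infused arrays were above the other 9, and the saline-infused knockout stood at 0.52 ± 0.15 from wild type on the log2 scale, past the threshold only with dim probe sets left out. The double knockout stood at -0.45 ± 0.15 from it (limma adjusted p = 0.104) and the gastrin-infused knockout at -0.25 ± 0.15 (adjusted p = 0.450), and neither passed. The first of these did pass with dim probe sets left out (adjusted p = 0.0490) and with the Gapdh RNA quality ratio as a covariate (-0.60, adjusted p = 0.0206). The summed intensity of 8 skeletal muscle markers was 2324 to 2937 in the gastrin-infused knockout, 1577 to 2658 in the double knockout, 2427 to 4542 in the saline-infused knockout and 1820 to 2394 in wild type. Of these markers 5 were above noise on all 12 arrays and 1, Myh4, on 0, and their part in the Pygm values was not tested.

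Gaa, the lysosomal enzyme, gave a different picture on each of its 2 probe sets. On 1419428_a_at it read 874, 783 and 894 in the gastrin-infused knockout, 729, 730 and 829 in double knockout mice, 673, 624 and 546 in the saline-infused knockout and 869, 1016 and 832 in wild type. The saline-infused arrays were below the other 9, at -0.56 ± 0.11 from wild type. Without single arrays of these 2 groups that difference was -0.63 to -0.47, and it was past the threshold in 0 of 6 refits. The gastrin-infused knockout stood at 0.47 ± 0.11 from the saline-infused knockout (limma adjusted p = 0.0748, and 0.0367 with dim probe sets left out). On the brighter 1436849_x_at the readings were 1650, 1529 and 1892 in the gastrin-infused knockout, 1176, 1418 and 1638 in double knockout mice, 1439, 1285 and 1550 in the saline-infused knockout and 1442, 1410 and 1386 in wild type. There the saline-infused and wild-type arrays overlapped, at a log2 difference of 0.01 ± 0.13, and the gastrin-infused arrays lay above wild type at 0.25 ± 0.13 (adjusted p = 0.498).

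**Figure D2:**
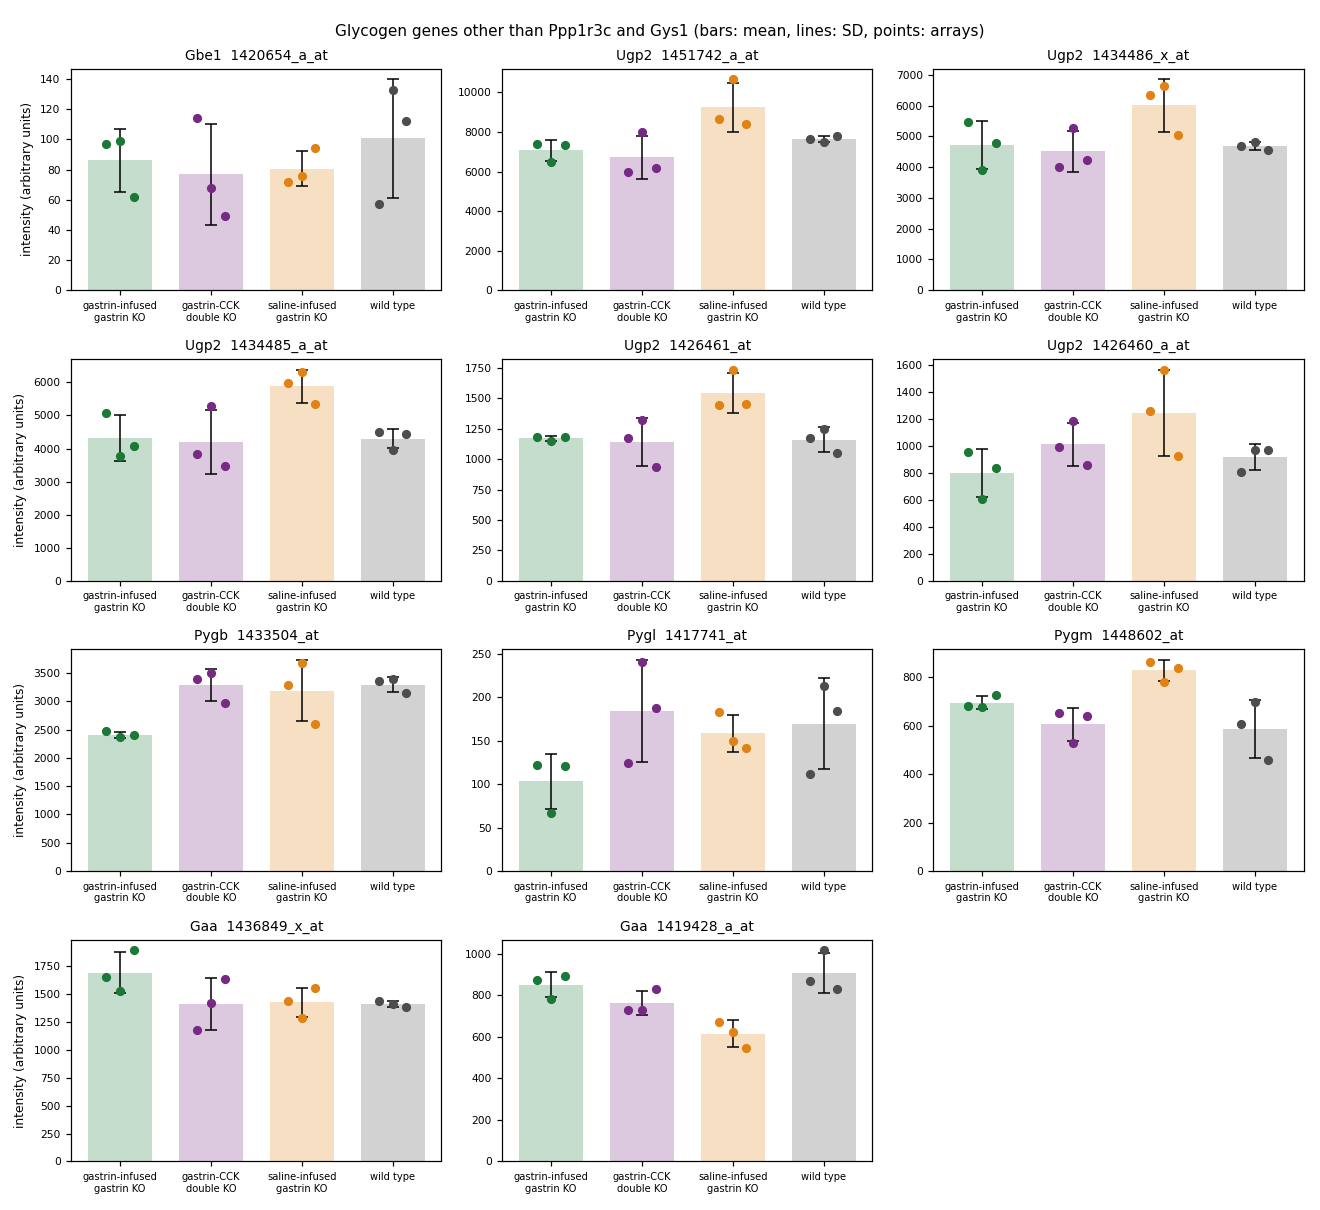
Intensity (arbitrary units, linear axes from 0) of the 11 probe sets of Gbe1, Ugp2, Pygb, Pygl, Pygm and Gaa in the 4 groups, with points for arrays, bars for means and lines for the SD (n = 3). Ugp2 and Pygm have their tallest bar in the saline-infused knockout, and Pygb its lowest in the gastrin-infused knockout (2362 to 2467).

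Counted together, the 15 probe sets did not move one way. The counts that follow are a description wherever they include Ppp1r3c or Gys1, and nothing is read from setting them beside the share of all probe sets. Between the saline-infused knockout and wild type 0 were past the threshold higher and 3 lower (Ppp1r3c 1433691_at, Gys1 1416737_at and Gaa 1419428_a_at), beside 2.08% of all probe sets (0.707% higher and 1.37% lower). The median log2 difference of the 15 was 0.01, against 0.00 over all probe sets. In the gastrin-infused against the saline-infused knockout 1 of 15 was past it, the brighter Ppp1r3c probe set, higher (1.25% of all probe sets, 0.773% higher), and the median was -0.35 against 0.00. In the double knockout against wild type it was 1, the same probe set, lower (4.14% of all, 2.12% lower). In the double knockout against the saline-infused knockout it was 2, the brighter Ppp1r3c and Gys1 probe sets, higher (5.98% of all, 3.22% higher).

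In the gastrin-infused knockout against wild type 0 of 15 passed by limma, where 0.11% of all did, with 2 at an unadjusted p under 0.05 (11.6% of all probe sets). In the gastrin-infused knockout against the double knockout 0 of 15 passed, where 5.83% of all did, with 3 at an unadjusted p under 0.05 (21.6% of all).

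The 11 probe sets of the 6 genes other than Ppp1r3c and Gys1 gave 0 calls in each of these comparisons but that of the saline-infused knockout with wild type. At an unadjusted p under 0.05 stood 7 of them for gastrin against saline infusion (15.97% of all probe sets), 5 of the 7 being Ugp2. For the double knockout it was 0 against wild type (19.6% of all) and 6 against the saline-infused knockout (21.5% of all), 4 of the 6 being Ugp2. For the gastrin-infused knockout it was 1 against wild type, Pygb, and 2 against the double knockout, Pygb and Pygl. These comparisons share arrays with one another.

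Counted by arrays that do not overlap, 8 of the 15 probe sets separated the saline-infused knockout from wild type (22.6% of all probe sets did), and 10 separated the gastrin-infused from the saline-infused knockout (20.2% of all), 4 of these higher and 6 lower. The double knockout separated from wild type on 2 (23.7%) and from the saline-infused knockout on 7 (25.2%). The gastrin-infused knockout separated from wild type on 4 (16.2%) and from the double knockout on 4 (25.5%). The 15 include 5 probe sets of Ugp2, so they are not 15 independent measurements.

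**Figure D3:**
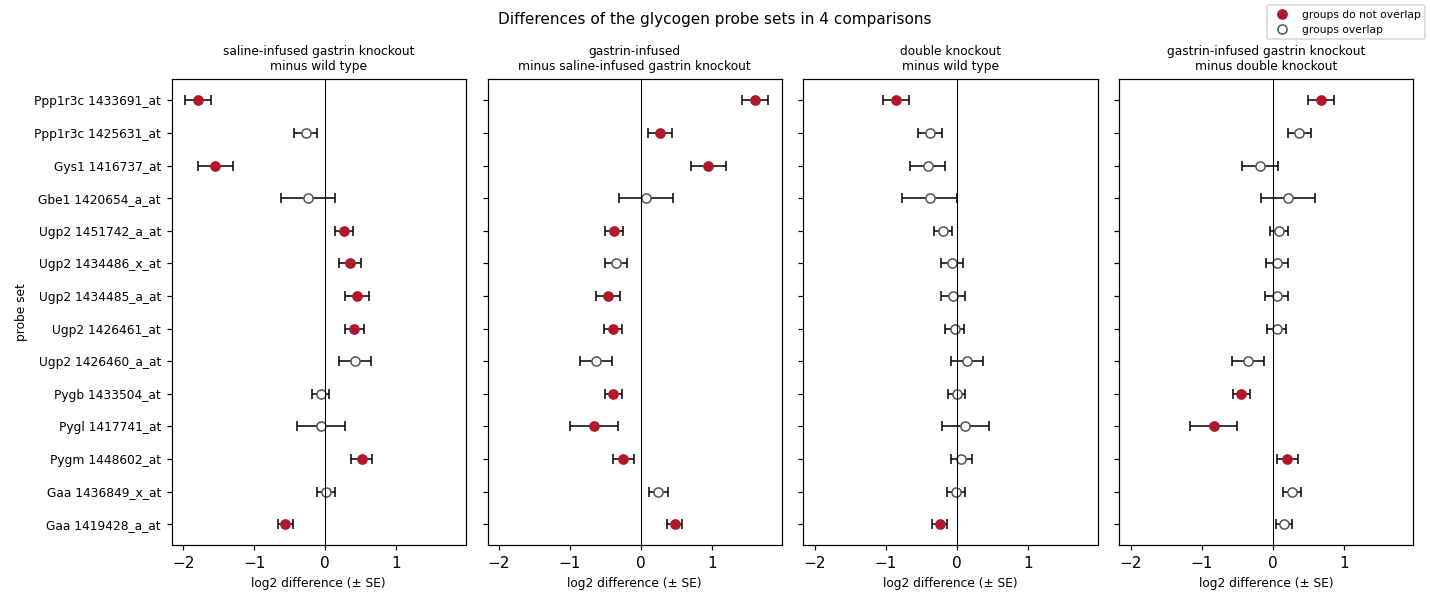
Log2 differences ± SE of 14 glycogen probe sets in 4 comparisons (the dim second Gys1 probe set is left out), filled where the 3 arrays of one group do not overlap with the 3 of the other. Ppp1r3c 1433691_at and Gys1 1416737_at stand at -1.79 and -1.55 in the first panel and at 1.61 and 0.95 in the second, where Ugp2, Pygb, Pygl and Pygm lie below 0.

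Agreement between probe sets of a gene was closest for Ugp2 among the 4 genes with several. Over the 12 arrays the 10 pairs of Ugp2 probe sets had a Pearson r of log2 values of 0.679 to 0.918, median 0.830. The pair of Ppp1r3c had 0.611, that of Gaa 0.296 and that of Gys1 -0.233. For orientation, 3191 pairs of probe sets of the same gene with both at or above the median signal had a median r of 0.427, and 7775 pairs at any signal had 0.212. The second probe sets of Ppp1r3c and Gys1 lay below the median signal. These are descriptions over arrays that share their groups. The positions of the probes were not used here.

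Whether the probe sets of a gene moved by different amounts was tested in the gastrin-infused against the double knockout, with the brightest probe set of each gene set against each other one. Of 7 such pairs 0 differed (limma on the within-array difference, adjusted over 7987 pairs of all genes), where 2.37% of all pairs did, and the lowest adjusted p was 0.220, for a pair of Ugp2. For Ppp1r3c the brighter minus the dimmer probe set gave 0.30 ± 0.19 there (adjusted p = 0.439). Between the saline-infused knockout and wild type, where the gene was chosen, that pair stood apart by -1.51 ± 0.19, given as a description.

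**Figure D4:**
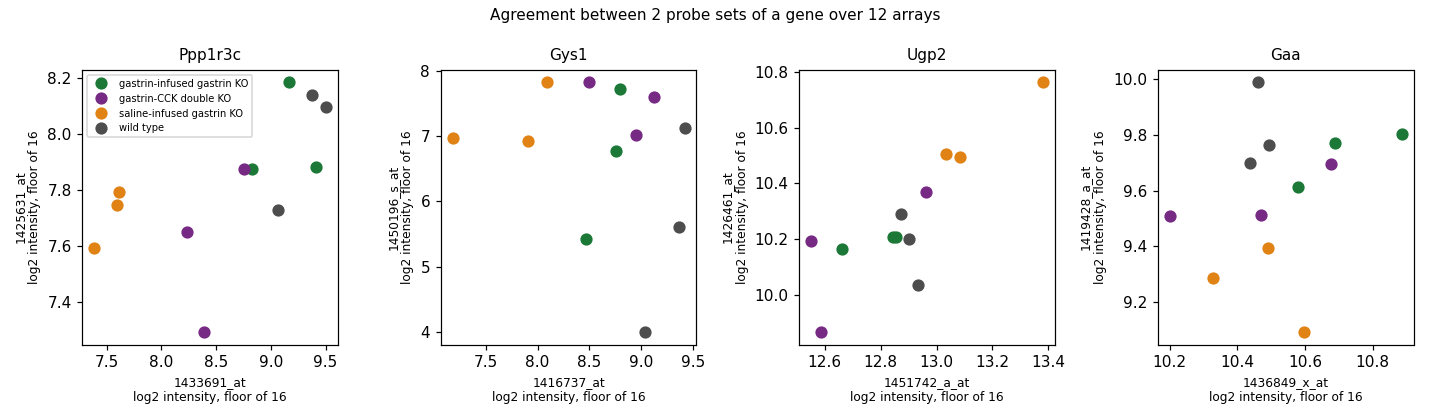
Log2 intensity (values under 16 raised to 16) of one probe set against another of the same gene for Ppp1r3c, Gys1, Ugp2 and Gaa, with 1 point for each of the 12 arrays, coloured by group. The points run upwards together for Ugp2, and for Gys1 they do not (r of -0.233).

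The genes whose levels followed Ppp1r3c 1433691_at most closely over the 12 arrays, among probe sets at or above the median signal, were Tmem50b (r = 0.939), Antxr2 (0.935), Prnp (0.927), Uros (0.925) and Pnliprp1 (0.922). After the group means were taken out, the correlations were -0.18, 0.44, 0.49, 0.05 and 0.26 in that order, so most of the likeness lay in the group means. Tmem50b, for example, averaged 6977 in the gastrin-infused knockout, 5255 in the double knockout, 4116 in the saline-infused knockout and 7197 in wild type.

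The wider pathway was read from a list of 43 other genes of glycogen and glucose handling, 30 of them measured with 49 probe sets. Between the saline-infused knockout and wild type 1 of the 30 genes passed higher and 2 lower, with 3 of the 49 probe sets (2.08% of all probe sets passed). The higher one was Pgm1, a phosphoglucomutase gene, at 0.46 ± 0.09 on the log2 scale (limma adjusted p = 0.0455), with 1070, 1200 and 1122 against 858, 770 and 844. The lower ones were Phkb, the regulatory beta subunit of phosphorylase kinase, at -0.77 ± 0.15 (adjusted p = 0.0364), and Prkag2, a gamma subunit of the AMP-activated kinase, at -1.17 ± 0.23 on 1 of its 3 probe sets (adjusted p = 0.0434). On that probe set the saline-infused arrays read 98, 106 and 71, near their noise levels of 89, 88.75 and 95, so the size of its difference is uncertain. Phkb read 759, 681 and 645 in the saline-infused knockout, against 1103, 1451 and 1027 in wild type. With single arrays left out, Pgm1 and Prkag2 lost the call in 6 of 6 refits, whichever array of the 2 groups was missing, and Phkb in 5 of 6, all but the one without wild-type replicate 3 (adjusted p up to 0.135, 0.129 and 0.0973).

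In the gastrin-infused against the saline-infused knockout 0 of the 30 genes passed, and 0 also passed for the double knockout and for the gastrin-infused knockout, each against wild type. In the double knockout against the saline-infused knockout 1 rose and 2 fell, with 5 of the 49 probe sets (5.98% of all passed). Slc2a1, the glucose transporter of most tissues, fell on all 3 of its probe sets, by 0.80, 0.64 and 0.52 on the log2 scale (limma adjusted p = 0.0250, 0.0271 and 0.0430). On 1434773_a_at it read 2339, 2015 and 2204 in the double knockout, against 3288, 3366 and 2785 in the saline-infused knockout, and the arrays did not overlap. Prkag2 1423831_at rose by 1.70 ± 0.23 (adjusted p = 0.00728), with 318, 359 and 220 in the double knockout against 98, 106 and 71 in the saline-infused knockout, while its other 2 probe sets did not pass (0.66 ± 0.30 and 0.21 ± 0.24). Ppp1cb, a catalytic subunit of protein phosphatase 1, fell by 0.78 on 1 of 4 probe sets (adjusted p = 0.0414). The Prkag2 call held in 6 of 6 refits without single arrays, but its saline-infused values lay near the noise, so the size of the rise is uncertain. The Slc2a1 calls held in 2, 2 and 1 of 6 and were all lost without saline-infused replicate 1 or 2 or double knockout replicate 1 or 3 (adjusted p up to 0.124), and the Ppp1cb call held in 1, that without double knockout replicate 3 (up to 0.110).

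In the gastrin-infused knockout against the double knockout 3 of the 30 genes passed higher and 2 lower, with 5 of the 49 probe sets (5.83% of all passed). Slc2a4, the insulin-regulated glucose transporter, was higher by 0.63 ± 0.13 on 1 of 2 probe sets (limma adjusted p = 0.0275), with 1776, 1685 and 2021 in the gastrin-infused knockout against 1422, 1093 and 1057 in the double knockout. Hk2, the hexokinase of muscle and fat, was higher by 0.44 ± 0.10 (adjusted p = 0.0372), with 1196, 1271 and 1281 against 834, 914 and 1014. Ppp1cb was lower by -0.44 ± 0.08 on its brightest probe set (adjusted p = 0.0152), with 4092, 3749 and 4122 against 4908, 5806 and 5520. Its other 3 probe sets did not pass and stood at 0.66 ± 0.18, 0.23 ± 0.13 and -0.43 ± 0.20, so they did not share 1 direction. Prkag2 was lower by -1.14 ± 0.23 on 1 of 3 probe sets (adjusted p = 0.0267), while the others, at 0.00 ± 0.24 on the brightest and -0.50 ± 0.30, did not pass. Phkg1, a catalytic subunit of phosphorylase kinase, passed (adjusted p = 0.0485) with all its values within the noise, so no fold is given. The Ppp1cb call was lost without gastrin-infused replicate 2 alone (adjusted p = 0.0538). The Slc2a4 call held without double knockout replicate 1 alone, the Hk2 call without double knockout replicate 3 alone, the Phkg1 call in 0 of 6 refits, and the Prkag2 call without gastrin-infused replicate 1 or double knockout replicate 3 (adjusted p up to 0.0828, 0.104, 0.140 and 0.0817).

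**Figure D5:**
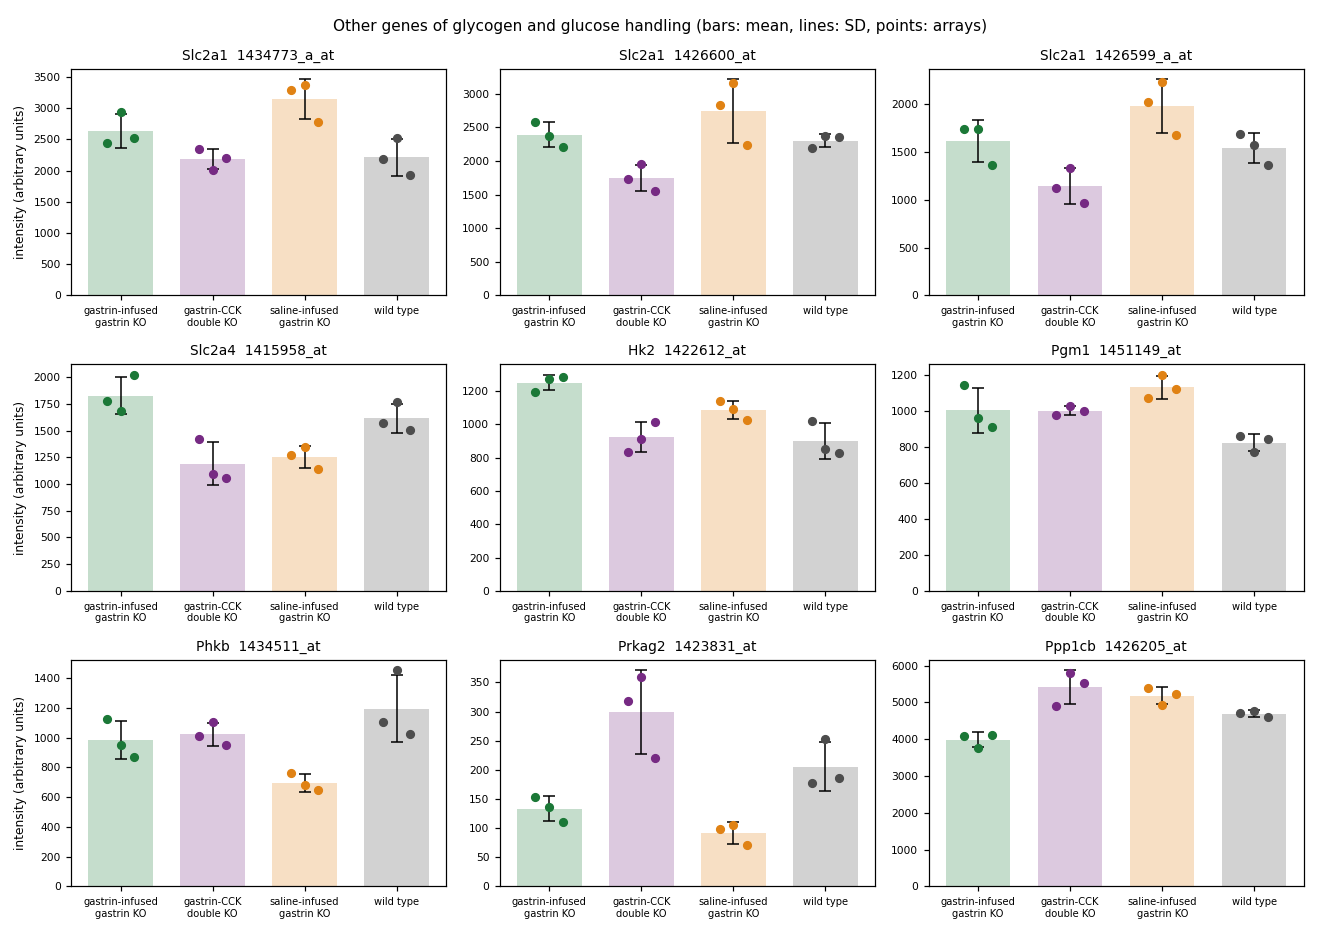
Intensity (arbitrary units, linear axes from 0) of 9 probe sets of other glycogen and glucose genes in the 4 groups, with points for arrays, bars for means and lines for the SD (n = 3). The 3 Slc2a1 probe sets are lower in the double knockout than in the saline-infused knockout, and Prkag2 1423831_at is higher (220 to 359 against 71 to 106).

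The scrapings hold several cell types, and in such bulk RNA fewer cells of a type and less RNA per cell cannot be told apart. The summed intensity of 5 measured parietal cell markers (acid-secreting cells) was 149960 to 156352 in the gastrin-infused knockout, 92713 to 102808 in the double knockout, 96163 to 115853 in the saline-infused knockout and 140400 to 171175 in wild type. That of 4 measured markers of enterochromaffin-like cells, the histamine cells that gastrin acts on, was 15284 to 22688, 2859 to 4161, 2897 to 3104 and 7525 to 13122 in the same order. Both sums were low in the 2 groups that received no gastrin and lack its gene. The second sum is mostly Chga, and Slc18a1 of the same list was lowest in wild type, averaging 426, 288, 295 and 266 in the same order. In the double knockout the sums of other mucosal cell types were low as well: those of 4 chief cell markers were 142477 to 154682, 97479 to 101993, 132818 to 145858 and 146266 to 168172, and those of 4 surface mucous cell markers 351859 to 390355, 230962 to 247640, 317458 to 382649 and 327884 to 393591, in the same order. The sums follow their brightest genes, and these were low in the double knockout in several lists. Pgc averaged 59505 there against 97715 in wild type, Gkn1 61236 against 91922 and Atp4b 48755 against 78267. Dimmer markers differed less, with Kcnq1 at 3195 against 4122. Whether the sums follow the content of cells or the signal range of these arrays was not tested. The chief cell sums follow Pgc and Cblif, and the list was mixed. Pga5 averaged 6075, 11825, 10092 and 11729 in the same order, highest in the double knockout. Bhlha15 averaged 1787, 1582, 1087 and 2154, lowest in the saline-infused knockout. The lower sums of the double knockout go along with the comparison in which Ppp1r3c and Gys1 were tested. Like the parietal and enterochromaffin-like sums, Ppp1r3c 1433691_at was lower on every double knockout and saline-infused array than on any array of the other 2 groups, while Gys1 1416737_at was not. A liver list led by Apoa1, of 4 genes, summed to 39989 to 44754, 30941 to 32333, 23363 to 30014 and 35960 to 50923, again in that order. The 6 markers of forestomach squamous epithelium summed to 7563 to 19706, 9782 to 24555, 18420 to 31881 and 15815 to 20677, with their highest array in the saline-infused knockout, where Ugp2 and Pygm were highest. Within that group replicate 2 had the lowest forestomach sum (18420), the highest reading on every Ugp2 probe set and the lowest of Pygm (781). Tff2, the 1 measured mucous neck marker, read 55673 to 57259, 46293 to 52081, 65205 to 73062 and 57227 to 66587 in the same order, highest on that replicate. Sprr1a made up most of the forestomach sum, averaging 8028, 7802, 16078 and 14010 in the same order. Krt4 was instead highest in the double knockout (5844, against 2753 in the saline-infused knockout), and Krt13 was close in these groups (3487 and 3644). Smooth muscle markers summed to 31056 on gastrin-infused replicate 1 and to 4373 to 8923 on the other 11 arrays, and Ppp1r3c read 681 on that array, the highest of its group. The 4 measured fat markers summed to 5204 to 7223, 2976 to 10174, 8143 to 9347 and 7854 to 9353 in the same order. Their highest array was double knockout replicate 2, which also had the lowest forestomach sum of its group (9782). On that array Ppp1r3c 1433691_at (432) and every Ugp2 probe set read highest of their group. The Gapdh control probe sets gave a 3′ over 5′ ratio, a measure of RNA quality, that was 1.20 ± 0.02, 1.31 ± 0.01, 1.10 ± 0.08 and 1.50 ± 0.51 (SD, n = 3 each) in that order. The part of these markers in the glycogen values was not tested. With the Gapdh ratio as a covariate 1 of the 15 probe sets, Ppp1r3c, was past the threshold between the saline-infused knockout and wild type in place of 3, and Pygm took the place of Gys1 among the 2 in the double knockout against the saline-infused knockout. Ppp1r3c in the gastrin-infused against the double knockout was then 0.63 in place of 0.68.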

How the data were processed

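Each array has 1 deposited intensity per probe set, linear and in whole numbers, some below 0. How the authors summarised and scaled the intensities is not given in the sources used here. Per the labels' protocols, about 1 µg of total RNA, isolated with Trizol and a column kit, was made into biotinylated cRNA. Of 22690 probe sets 64 controls were left out. Gene names came from the platform's probe annotation, and 20351 gene identifiers matched the GRCm38.p6 gene table with 0 symbols changed.

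No further scaling was applied. Values under 16 (7.57% to 8.47% of an array) were raised to 16, and log2 values were fitted with 1 mean per group over 12 arrays (limma 3.58.1, R 4.3.3, 8 residual degrees of freedom). All 6 comparisons are contrasts in it, adjusted by Benjamini-Hochberg over 22626 probe sets, with a threshold of 0.05. Fold changes are differences of mean log2 values. The fit was tested on simulated data. Figures used matplotlib 3.10.9.

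All probe sets of the 8 genes are named. Other pathway genes are named where a probe set passed in any comparison, and the 5 genes most like Ppp1r3c by Pearson correlation. The 8 genes, the pathway list and the marker lists were chosen with earlier results of these data known. The alternatives were quantile normalization, median centring, a filter at the median signal, floors of 1 and 64, a trended and robust variance prior, fits of only 2 groups, the Gapdh ratio as a covariate, the replicate number as a block, and leaving out each array.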

Additional observations from a re-analysis of the deposited data

How the results depend on the processing

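The directions of Ppp1r3c 1433691_at and Gys1 1416737_at held in each comparison under every alternative, and what moved was the number of the 15 probe sets that passed. Leaving out dim probe sets kept 11 of the 15, with Ppp1r3c 1433691_at and Gys1 1416737_at just inside (percentiles 51.3 and 50.8). In the gastrin-infused knockout against the double knockout 0 passed (1319 of all 22626 did). It was 2 with quantile normalization (Ppp1r3c and Pygb, 1497 of all) and 1 with the trended, robust prior (1775 of all). With dim probe sets left out it was 2 of 11 (1736 of 11313). In the gastrin-infused against the saline-infused knockout it was 1 (282 of 22626) and 2 with the trended prior (732). With dim probe sets left out it was 3 of 11 (705 of 11313). In the double knockout against the saline-infused knockout it was 2 (1352 of 22626), and 6 of 11 with dim probe sets left out (1822 of 11313). With only the 2 groups compared in the fit, and so fewer arrays, it was 0 in each of these, between the saline-infused knockout and wild type (3) and in the double knockout against wild type (1). Those fits called 20 to 295 of all 22626 probe sets. The Gapdh covariate left 1 of the 3 between the saline-infused knockout and wild type, and its fit called 47 probe sets of all genes where the fit without it called 470. Leaving out single arrays gave 1 to 2 between the saline-infused knockout and wild type (94 to 285 of all 22626). It gave 0 to 1 in the double knockout against wild type (323 to 613 of all) and 0 to 2 in the double knockout against the saline-infused knockout (496 to 928 of all). For the brighter Ppp1r3c probe set the adjusted p in the gastrin-infused knockout against the double knockout was then 0.0605 to 0.182. No pair of probe sets of a gene differed in that comparison under any alternative. The replicate block took the count in the double knockout against wild type from 1 to 0, where 703 of all 22626 passed. Between the saline-infused knockout and wild type it left 2 of 3 (239 of all). Same-numbered arrays of different groups deviated together, at r over 0.1, in 5 of 18 pairs (median r 0.010, range -0.357 to 0.506). The 36 other-numbered pairs had a median r of 0.011 (range -0.380 to 0.424). Deviations within groups of 3 depend on one another, so these values do not decide whether the numbers pair the samples. With 3 arrays a group, signal near the noise limited Gbe1 and the second Gys1 probe set.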
